A study of Mus musculus with 4 samples.

Results

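The genes described here encode enzymes that write and remove DNA methylation in mouse cells, and the proteins UHRF1 and DNMT3L that work with the writers. They are Dnmt1, Dnmt3a, Dnmt3b, Dnmt3l, Uhrf1, Tet1, Tet2 and Tet3. They were chosen by name and not by a cut on measured values, though with earlier results of these data known. They are 8 of the 55413 genes annotated on chromosomes 1 to 19, X and Y (GENCODE M21, mm10). Each gene was taken from 1 kb upstream of its annotated start to its end. These stretches hold 7425 CpGs of the mm10 sequence, of which 3585 had a value in at least 1 library. Levels were measured by RRBS (reduced representation bisulfite sequencing), in which DNA is cut at CCGG by MspI and an unmethylated cytosine is read as thymine. A value is the percent of reads that kept the cytosine at a CpG, so 5-methylcytosine and 5-hydroxymethylcytosine are counted together.

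The series holds 4 libraries: ESCs and neurons of the line R1, and ESCs and neurons of the line Tet/Tet, 1 of each. R1 is a wild-type mouse embryonic stem cell line. Tet/Tet was derived from R1 by knocking tet-off constructs into Dnmt1, between its promoter and the translation start, and it overexpresses DNMT1; "Tet" in its name is the tetracycline switch and not a Tet enzyme. ESCs of both lines were kept in serum medium with LIF, and Tet/Tet ESCs also with puromycin and neomycin. Neurons of each line came from 2 days as embryoid bodies without LIF followed by 10 to 15 days in Ndiff227. The labels give neither the number of clones nor a doxycycline treatment. By their labels, the ESC pair and the neuron pair were sequenced as separate projects after different DNA extractions, so effects of cell type and of project cannot be told apart, whereas R1 and Tet/Tet of 1 cell type shared a project. With 1 library per condition there is no replicate error, no test between conditions was possible, and every SD below is over CpG sites. The tables give no read counts, so the depth of a site is unknown.

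Maintenance methylation copies the pattern of the parent strand after replication. UHRF1 binds the hemimethylated CpG and recruits DNMT1, which methylates the new strand. De novo methylation is made by DNMT3A and DNMT3B, and DNMT3L is their catalytically inactive cofactor in germ cells and ESCs. TET1, TET2 and TET3 oxidise 5-methylcytosine to 5-hydroxymethylcytosine and beyond, which leads to loss of the mark. CpG islands at the starts of active genes are as a rule unmethylated, whereas the bodies of transcribed genes are as a rule methylated.

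For R1, the tables listed 2311939 sites in ESCs and 5298360 in neurons, and for Tet/Tet 2936767 and 3979487. The Tet/Tet neuron table listed no site on chromosomes 8 and 9, on chromosome 7 from base 55762982 and on chromosome 10 up to base 128096802. Its total thus covers less of the genome than the other totals. Dnmt1 on chromosome 9 and Dnmt3l and Tet1 on chromosome 10 were therefore analysed in 3 libraries and the other 5 genes in 4. Means were taken over common sites, that is, sites listed in every library analysed at that gene, which number 41 at Dnmt3l and 402 at Dnmt3a, the lowest and the highest of the 8. As a check of the cell labels on methylation alone, the promoters of ESC markers were higher by at least 10 points in R1 neurons than in R1 ESCs in 4 of the 5 with enough sites (Dppa4 rose from 4.14% to 88.0%), and those of neuron markers in 3 of 5 (Syp, from 7.79% to 38.5%), against 37.2% of all promoters. Between the Tet/Tet libraries, of 3 ESC marker promoters 1 was higher in neurons (Dppa4, from 3.36% to 15.5%) and 1 lower (Esrrb, from 40.9% to 9.84%), and 0 of 4 neuron marker promoters differed, so promoter methylation did not set the Tet/Tet libraries apart by these markers. In R1 neurons promoters of both marker lists were higher, by medians of 37.3 points for ESC markers and 11.0 for neuron markers. The direction of change thus did not tell the lists apart, and this check does not settle the R1 labels. Expression was not measured in this series.

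The following 5 stretches of the mm10 sequence are shown because they carry the patterns described below. Each is written 5′ to 3′ on the strand of its gene, and capitals mark CpGs at 50% or more in R1 neurons, except at Dnmt1, where they mark CpGs at 25% or more in Tet/Tet ESCs.
Dnmt1, coding part of the first exon, chr9:20952708-20952787, minus strand: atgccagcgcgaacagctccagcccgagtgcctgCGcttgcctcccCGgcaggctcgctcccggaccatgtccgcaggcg
Dnmt3b, upstream of the gene start, chr2:153649200-153649449, plus strand: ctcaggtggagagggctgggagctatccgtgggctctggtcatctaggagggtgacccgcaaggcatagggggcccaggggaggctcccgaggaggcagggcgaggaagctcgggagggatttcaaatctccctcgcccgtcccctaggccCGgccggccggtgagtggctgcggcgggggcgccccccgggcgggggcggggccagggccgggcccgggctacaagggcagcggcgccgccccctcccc
Uhrf1, flank upstream of its island, chr17:56302760-56302920, plus strand: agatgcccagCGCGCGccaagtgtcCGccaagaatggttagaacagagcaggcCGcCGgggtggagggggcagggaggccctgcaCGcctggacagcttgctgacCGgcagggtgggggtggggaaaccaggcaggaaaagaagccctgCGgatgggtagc
Tet1, coding exon at the start of the transcript Tet1-201, chr10:62879751-62879890, minus strand: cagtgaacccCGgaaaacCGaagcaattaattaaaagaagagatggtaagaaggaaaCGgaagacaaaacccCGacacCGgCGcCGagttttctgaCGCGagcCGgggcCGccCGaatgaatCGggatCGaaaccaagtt
Tet3, island inside a coding exon, chr6:83404466-83404724, minus strand: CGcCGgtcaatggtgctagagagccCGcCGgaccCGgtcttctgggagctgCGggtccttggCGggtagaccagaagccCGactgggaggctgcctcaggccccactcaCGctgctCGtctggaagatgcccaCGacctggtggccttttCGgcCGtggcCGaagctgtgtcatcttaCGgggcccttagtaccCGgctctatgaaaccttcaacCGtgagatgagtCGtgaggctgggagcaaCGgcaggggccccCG
The Dnmt3b stretch also lies in the annotated gene Dnmt3bos. It holds 21 CpGs and 1 of its 18 listed sites is in capitals, whereas all 9 CpGs of the Uhrf1 flank, all 14 of Tet1 and all 20 of Tet3 are. In the 300 bases around each RefSeq start of the 8 genes (15 starts, mm10), the median was 18 CpGs, against 7 over all 32851 RefSeq promoters of the table. The MspI site CCGG was present in 10 of the 15, or 66.7%, against 52.8% of all promoters. It was absent at the 3 starts of Dnmt3l and at 2 of the 3 of Dnmt1.

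Gene bodies gave a value for every member, with one library on top throughout. The promoter was the stretch from 1 kb before to 1 kb after the gene start and the body the rest of the gene. The body was highest in R1 neurons at all 8 genes. At the 5 genes with 4 libraries it was lowest in Tet/Tet neurons except at Tet2, where R1 ESCs were lowest over common sites. Over each library's own sites Tet/Tet neurons were lowest at Tet2 too, at 12.6% against 25.7% in R1 ESCs. The plot of levels by library shows the order over common sites.

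**Figure D1:**
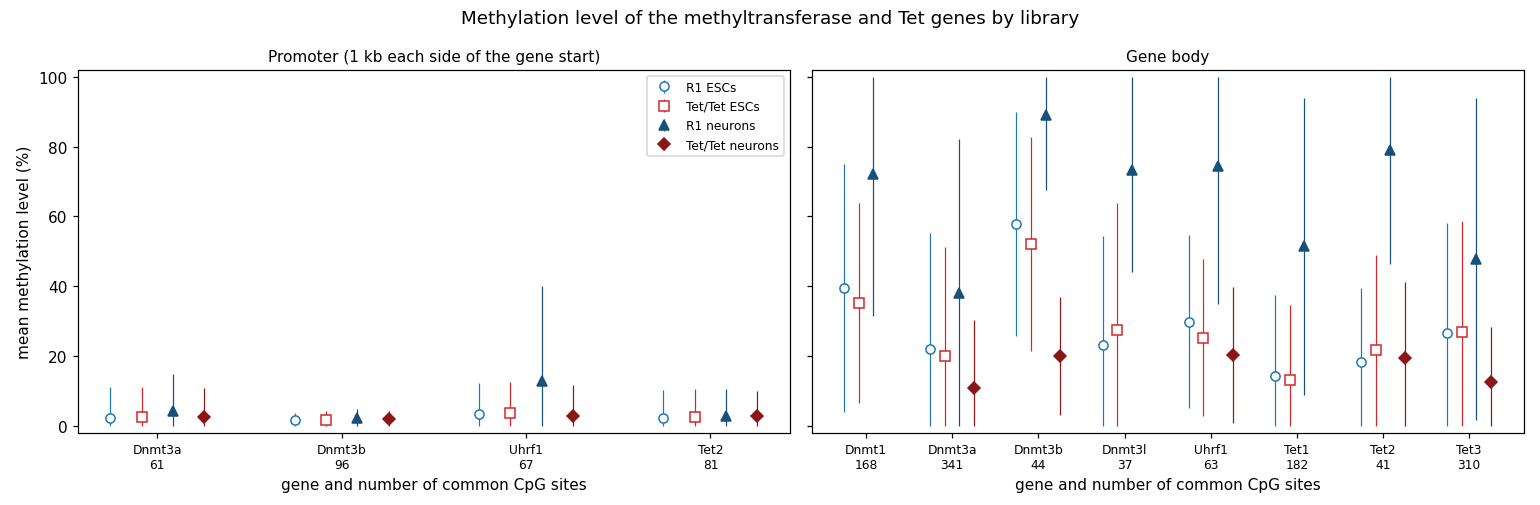
Mean methylation level (%, vertical axis) of the promoter (left, where it has at least 5 common sites) and the body (right) of each gene in each library, over the number of common CpG sites written under the gene; bars are the SD over sites, clipped at 0 and 100. The 4 promoters with at least 5 common sites lay below 13% in every library, and bodies were highest in R1 neurons at all 8 genes.

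Among the maintenance genes, the Dnmt1 body (168 sites) was at 39.4% ± 35.6 in ESCs and 72.1% ± 40.6 in neurons of R1, and at 35.2% ± 28.7 in Tet/Tet ESCs. The Uhrf1 body (63 sites) was at 29.7% ± 24.8 in ESCs and 74.5% ± 39.6 in neurons of R1, and at 25.2% ± 22.5 and 20.2% ± 19.6 in those of Tet/Tet. For both genes the ESC libraries lay close to each other and R1 neurons stood above them. At Uhrf1, Tet/Tet neurons were 54.4 points below R1 neurons, with 48 of 63 sites lower by at least 10 points and 0 higher.

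The de novo genes covered the widest range of body levels. The Dnmt3a body (341 sites) was at 22.0% ± 33.2 in ESCs and 38.1% ± 44.1 in neurons of R1, and at 19.9% ± 31.3 and 10.8% ± 19.4 in those of Tet/Tet. The Dnmt3b body (44 sites) was at 57.7% ± 32.1 in ESCs and 89.0% ± 21.6 in neurons of R1, and at 52.0% ± 30.6 and 19.8% ± 16.9 in those of Tet/Tet. Dnmt3b had the highest mean of the 8 in each of these libraries except Tet/Tet neurons, where Uhrf1 was the highest of 5. The Dnmt3l body (37 sites) was at 23.0% ± 31.5 in ESCs and 73.2% ± 29.2 in neurons of R1, and at 27.3% ± 36.6 in Tet/Tet ESCs. Of the common sites of Dnmt3l, 17 lie within Aire, a gene of the other strand that overlaps its upstream part, so these values belong to both genes.

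Of the Tet genes, the Tet1 body (182 sites) was at 14.1% ± 23.2 in ESCs and 51.3% ± 42.6 in neurons of R1, and at 13.2% ± 21.5 in Tet/Tet ESCs. The Tet2 body (41 sites) was at 18.2% ± 21.4 in ESCs and 79.1% ± 32.8 in neurons of R1, and at 21.5% ± 27.5 and 19.3% ± 21.8 in those of Tet/Tet. The Tet3 body (310 sites) was at 26.5% ± 31.5 in ESCs and 47.8% ± 46.2 in neurons of R1, and at 26.7% ± 31.9 and 12.6% ± 15.5 in those of Tet/Tet. Over common sites the gap between the R1 libraries ran from 16.1 points at Dnmt3a to 60.9 at Tet2. This order depends on the sites used: over each library's own sites the gap was 34.2 points at Dnmt3a, 28.3 at Dnmt3b and 58.0 at Tet2. The low averages of Dnmt3a and Tet3 hold many sites of CpG islands: at Dnmt3a, the 195 common body sites in islands were at 2.60% in R1 ESCs and 3.13% in R1 neurons, while the 146 outside were at 48.0% and 84.8%. In Tet2, body exons (18 sites) were at 96.9% in R1 and 27.2% in Tet/Tet neurons, and introns (23 sites) at 65.2% and 13.2%.

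A gene was counted as differing where its mean moved by at least 10 percentage points, with at least 20 common sites in a body and at least 5 in a promoter. Between Tet/Tet and R1 ESCs, 0 of 8 bodies differed, against 7.03% of the 10769 gene bodies measured, and the 8 differences ran from -5.66 points at Dnmt3b to 4.29 at Dnmt3l, with a median of -1.52 (1.07 over all genes). Between Tet/Tet and R1 neurons, 5 of 5 were lower, against 93.6% of 8541 genes. Their median was -54.4 points, against -67.6 over all genes, and the values ran from -69.1 at Dnmt3b to -27.3 at Dnmt3a. From R1 ESCs to R1 neurons, 8 of 8 were higher, against 91.7% of 10769 genes, with medians of 35.0 and 38.3 points. From Tet/Tet ESCs to Tet/Tet neurons, 2 of 5 were lower (Dnmt3b by 32.2 points and Tet3 by 14.1), against 70.6% of 8541 genes, with medians of -9.12 and -21.1. Over each library's own sites all 5 were, Tet2 going from -2.18 to -16.5 points and Uhrf1 from -5.07 to -13.0. The shares of members in neurons and between the R1 libraries were near those of all genes, so these shifts are not particular to the members. The comparisons share libraries and are not independent of each other.

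**Figure D2:**
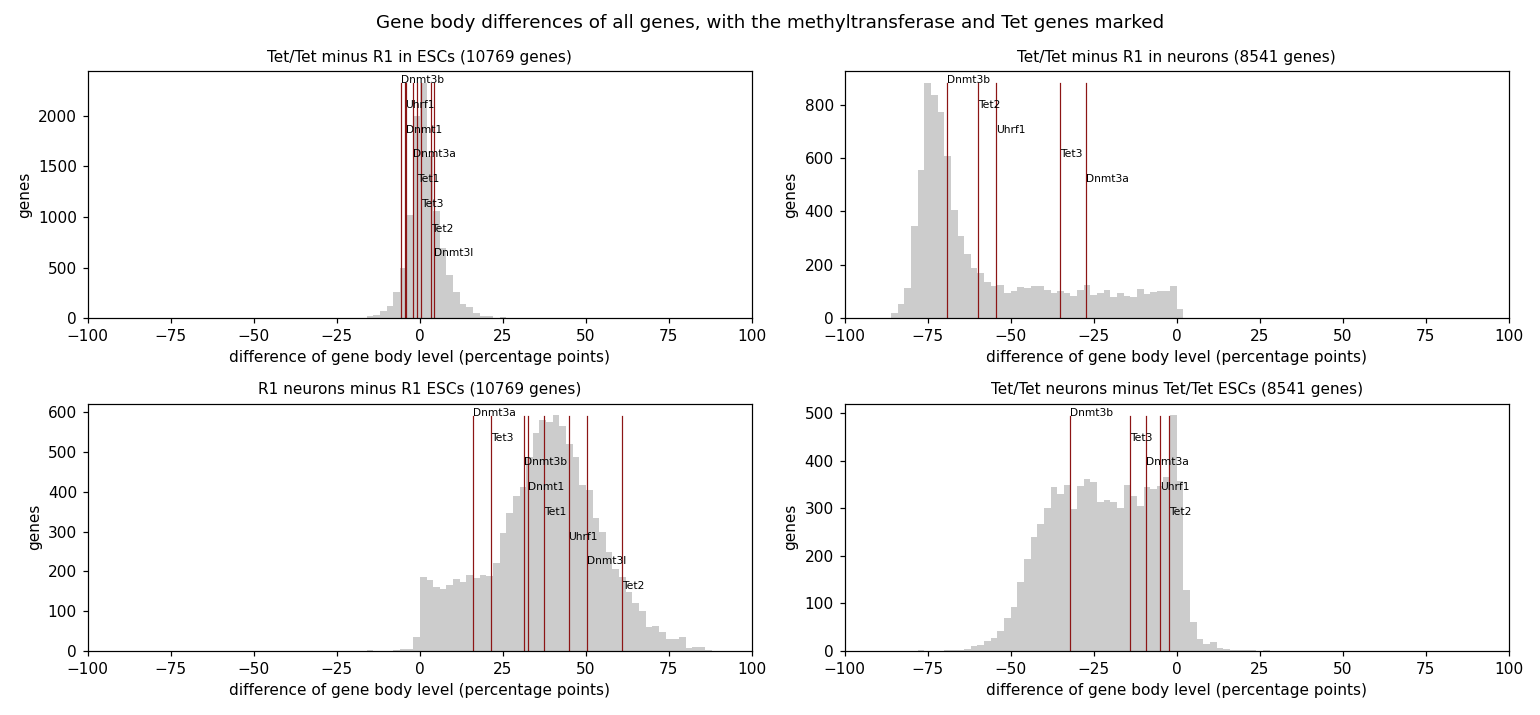
Difference of gene body level (percentage points, horizontal axis) over all genes with at least 20 common sites (grey, number of genes on the vertical axis), with the methyltransferase and Tet genes as labelled red lines, for the 4 comparisons. The members lie within the bulk of all genes: around 0 in ESCs, from -69.1 to -27.3 in neurons, from 16.1 to 60.9 between the R1 libraries, and from -32.2 to -2.18 between the Tet/Tet libraries.

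Of the 4 promoters with at least 5 common sites at the gene start, 3 were low in every library. The Dnmt3a promoter (61 sites) was at 2.30% in ESCs and 4.20% in neurons of R1, and at 2.49% and 2.46% in those of Tet/Tet. The Dnmt3b promoter (96 sites) was at 1.53% in ESCs and 2.07% in neurons of R1, and at 1.72% and 1.74% in those of Tet/Tet. The Tet2 promoter (81 sites) was at 2.28% in ESCs and 2.62% in neurons of R1, and at 2.50% and 2.63% in those of Tet/Tet. The largest difference of these 3 promoters in any comparison was 1.90 points, at Dnmt3a between the R1 libraries. The printed Dnmt3b stretch, which ends at the gene start, had medians of 0.794% in ESCs and 0.4% in neurons of R1, and of 0.272% and 0% in those of Tet/Tet over the sites each library listed. Its single capital CpG was at 100% in R1 neurons.

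Uhrf1 was the exception among the promoters. Its 67 sites were at 3.22% in ESCs and 12.9% in neurons of R1, and at 3.74% and 2.68% in those of Tet/Tet. The 55 sites in its island were between 0.922% and 1.43% in all libraries. The 12 sites outside it were at 13.4% in ESCs and 65.9% in neurons of R1, and at 14.3% and 10.8% in those of Tet/Tet. The gap of R1 neurons therefore lay in the flank and not in the island. In the printed flank the 9 sites had medians of 8.70% in ESCs and 80% in neurons of R1, and of 9.09% and 5% in those of Tet/Tet, and the lowest site of R1 neurons was at 60%. The highest site was at 58.7% in R1 and 52.7% in Tet/Tet ESCs, below every site of R1 neurons, and at 63.6% in Tet/Tet neurons, which overlapped R1 neurons. How often libraries separate in this way over other flanks was not counted.

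The gene start was a poor guide to the promoter of the other 4 genes, whose annotated start had few common sites. It held 1 common site at Dnmt1, 4 at Dnmt3l, 0 at Tet1 and 3 at Tet3. These few sites were not low: in R1 neurons they were at 91.8% at Dnmt1, 87.1% at Dnmt3l and 96.0% at Tet3. In R1 ESCs they were at 23.4%, 12.0% and 43.3%, in Tet/Tet ESCs at 33.6%, 22.0% and 53.1%, and at Tet3 in Tet/Tet neurons at 18.2%. Of the 4 promoters with enough sites, 0 differed between Tet/Tet and R1 ESCs, against 8.26% of 20493 genes. In neurons 1 of 4 was lower in Tet/Tet (Uhrf1, by 10.2 points, and by 3.30 over MspI fragment sites, where it is no longer counted), against 38.1% of 16440 genes. None of the 4 was higher in R1 neurons than in R1 ESCs by 10 points, against 37.2% of 20493 genes, Uhrf1 being nearest at 9.70. None of the 4 was lower in Tet/Tet neurons than in Tet/Tet ESCs, against 17.0% of 16440 genes.

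Transcript starts gave a fuller view. Starts of protein-coding transcripts within 500 bp of each other were joined, which gave 29 groups in the 8 genes, and 18 of them had at least 5 common sites within 1 kb. Of these 18, 12 had CpGs of an island within that distance. At these 12 the level was at most 12.7% in ESCs and 28.4% in neurons of R1, and at most 8.26% and 8.43% in those of Tet/Tet. The medians over these starts were 2.54% in ESCs and 2.81% in neurons of R1, and 3.21% and 2.45% in those of Tet/Tet. They include the main island start of each member other than Dnmt3l. The maximum in R1 neurons was Uhrf1-201, whose window takes in the flank shown above.

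**Figure D3:**
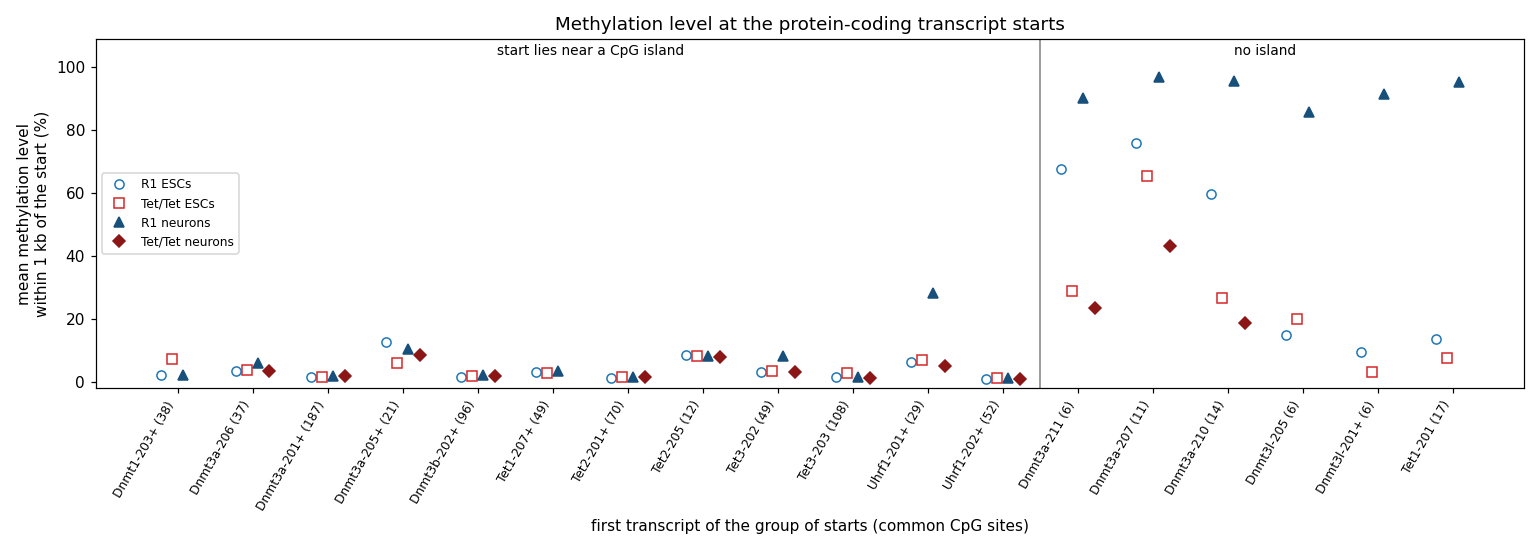
Mean methylation level (%, vertical axis) within 1 kb of each group of protein-coding transcript starts with at least 5 common sites, by library; the number of common sites is in brackets, + marks groups of several transcripts, and the grey line parts the 12 starts with island CpGs from the 6 without. Starts with island CpGs were low in all libraries except Uhrf1-201 in R1 neurons, and the 6 others lay between 85.9% and 97.0% in R1 neurons.

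The island start of Tet1 (Tet1-207 and Tet1-210, 49 sites) was at 3.03% in ESCs and 3.34% in neurons of R1, and at 2.97% in Tet/Tet ESCs. It lies 21484 bp into the annotated gene. The start of Tet1-201, at 28982 bp, has no island. Its 17 common sites were at 13.7% ± 11.2 in R1 and 7.68% ± 8.27 in Tet/Tet ESCs, and those of R1 neurons were at 91.9% or above in the printed stretch of 14 CpGs. In that stretch the highest site was at 33.3% in R1 and 30.6% in Tet/Tet ESCs. How many stretches of the genome show such a gap was not counted. Of all 1 kb windows at transcript starts of the genome, 33.6% were higher in R1 neurons by at least 10 points. Tet1 thus combined an unmethylated island start in all 3 libraries with a coding exon that was low in both ESC libraries and close to 100% in R1 neurons.

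At Dnmt3l both measurable starts lacked an island. The 6 sites of Dnmt3l-205 were at 14.9% in ESCs and 85.9% in neurons of R1, and at 20.1% in Tet/Tet ESCs. The 6 sites of Dnmt3l-201 were at 9.58% in ESCs and 91.4% in neurons of R1, and at 2.98% in Tet/Tet ESCs. Both were low in the ESC libraries and high in R1 neurons. The only island of the gene, 272 bp in an intron and at the start of Aire, had 13 common sites at 0.669% in ESCs and 38.8% ± 20.8 in neurons of R1, and at 1.63% in Tet/Tet ESCs. None of its sites lies in an MspI fragment of 40 to 220 bp, the size range that RRBS mainly samples.

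Dnmt3a has starts of both kinds. The 187 sites at Dnmt3a-201, in a large island, were at 1.66% in ESCs and 1.93% in neurons of R1, and at 1.64% and 1.75% in those of Tet/Tet. The internal start Dnmt3a-207 (11 sites) was at 75.9% in ESCs and 97.0% in neurons of R1, and at 65.3% and 43.3% in those of Tet/Tet. Dnmt3a-210 (14 sites) was at 59.8% in ESCs and 95.7% in neurons of R1, and at 26.6% and 18.6% in those of Tet/Tet. Dnmt3a-211 (6 sites) was at 67.6% in ESCs and 90.3% in neurons of R1, and at 28.7% and 23.4% in those of Tet/Tet. These 3 starts were lower in Tet/Tet than in R1 in ESCs as well as in neurons, by 10.6, 33.1 and 38.8 points in ESCs.

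At Dnmt3a-207 and Dnmt3a-210 the ESC differences lay at sites outside MspI fragments. At Dnmt3a-210 the 7 sites outside were at 78.0% in R1 and 8.63% in Tet/Tet ESCs, while the 7 inside were at 41.5% and 44.6%. At Dnmt3a-207 the 7 sites inside were at 64.1% and 63.5%. Dnmt3a-211 has 2 inside, too few to count, at 83.3% and 33.3%. Outside both fragments and islands, 55.3% of the members' values in R1 and 57.5% in Tet/Tet ESCs were exactly 0 or 100, against 11.2% and 12.9% inside fragments. The part of this in the differences was not tested.

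Counted over starts, 3 of 18 differed between Tet/Tet and R1 ESCs, all at Dnmt3a and all lower, against 5.78% of 18591 starts, and 0 of 14 did so over fragment sites alone. In neurons 4 of 13 were lower in Tet/Tet, against 33.8% of 14871 starts: the same 3 and Uhrf1-201. From R1 ESCs to R1 neurons 7 of 18 were higher, against the 33.6% given above, namely all 6 without island and Uhrf1-201. From Tet/Tet ESCs to Tet/Tet neurons 1 of 13 was lower (Dnmt3a-207, by 22.0 points), against 12.1% of 14871 starts.

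Tet3 has 4 islands, and they did not behave alike. The island at the start of Tet3-203 (108 sites) was at 1.54% in ESCs and 1.64% in neurons of R1, and at 2.70% and 1.14% in those of Tet/Tet, and that at Tet3-202 (32 sites) was between 1.90% and 2.88% in all libraries. The other two lie inside coding exons, over 1 kb from any protein-coding start. The printed one (16 common sites) was at 69.5% ± 12.5 in ESCs and 96.6% ± 2.69 in neurons of R1, and at 78.9% ± 11.5 and 21.8% ± 6.43 in those of Tet/Tet. In the printed stretch, the lowest listed site of R1 neurons was at 89.7% and the highest of Tet/Tet neurons at 36.5%. The share of islands in the genome with such a gap was not counted. The fourth island (473 bp, chr6:83368002-83368474, 19 common sites) was at 19.5% in ESCs and 94.7% in neurons of R1, and at 16.2% and 32.0% in those of Tet/Tet.

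Over islands away from starts, 0 of these 2 differed between the ESC libraries, against 10.4% of 2980 islands, and 2 of 2 were lower in Tet/Tet than in R1 neurons, against 69.4% of 2384. Both were higher in R1 neurons than in R1 ESCs, against 70.0% of 2980. Between the ESC libraries the printed island was close to the cutoff, at 9.38 points higher in Tet/Tet. Of its 16 common sites, 10 were higher by at least 10 points and 1 lower. Over each library's own sites it was at 71.3% in R1 and 82.2% in Tet/Tet ESCs, which would be counted. Between the Tet/Tet libraries the printed island was lower in neurons by 57.1 points, against 14.2% of 2384 islands that were lower, and the other was higher by 15.7. The running means along Dnmt3a, Uhrf1, Tet1 and Tet3 show the dips at start islands and the absence of a dip at the printed Tet3 island.

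**Figure D4:**
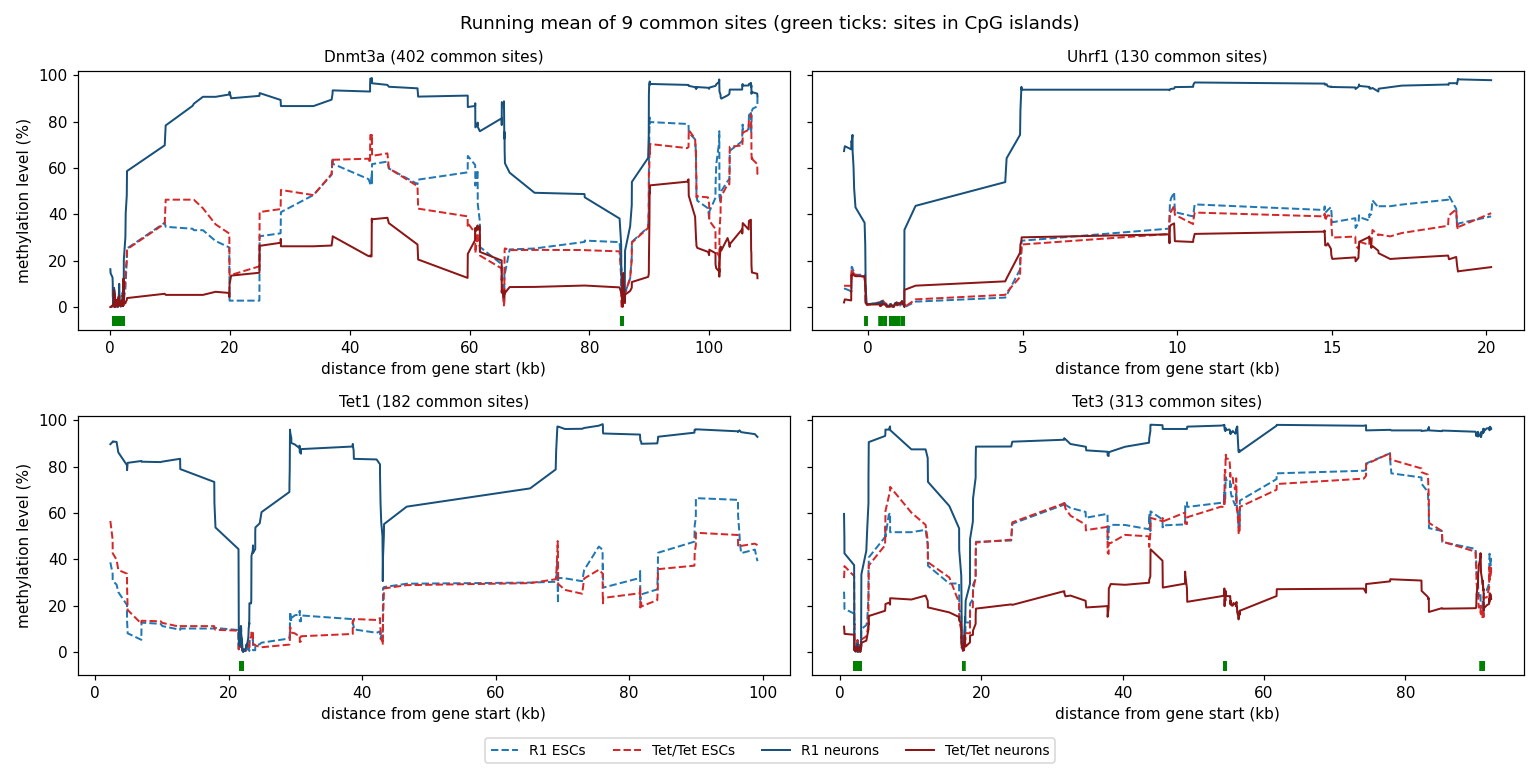
Running mean of the methylation level (%, vertical axis) over 9 neighbouring common sites along 4 genes, by distance from the gene start (kb, horizontal axis); green ticks mark sites in CpG islands, dashed lines are ESCs and solid lines neurons. All libraries dip to near 0 at the start islands, and between them R1 neurons lie above and, where listed, Tet/Tet neurons mostly below the ESC libraries.

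Dnmt1 carries the constructs of the Tet/Tet line. The first exon of Dnmt1-201 (ENSMUST00000004202.16, 272 bp, chr9:20952708-20952979) holds the start codon, with the last 80 bases coding. Its island (25 common sites) was at 1.11% in ESCs and 1.24% in neurons of R1, and at 6.77% in Tet/Tet ESCs. The 10 exon sites listed in all 3 libraries were at 2.01% in ESCs and 1.72% in neurons of R1, and at 13.0% in Tet/Tet ESCs, which is a gap of 11.0 points between the ESC libraries. Over the sites each library listed, the exon was at 1.94% in R1 ESCs (11 sites), 0.737% in R1 neurons (24 sites) and 23.8% in Tet/Tet ESCs (24 sites). Tet/Tet ESCs thus had the highest mean in this exon, but few sites carried it. Of the 25 common island sites, 3 were higher by at least 10 points in Tet/Tet than in R1 ESCs. The island medians were 2.44% and 0.366%.

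The raised values were uneven. In Tet/Tet ESCs 13 of the 24 exon sites were at 25% or more, with a maximum of 57.1%. Neighbouring sites repeated the same values, 37.5% and 50%, from base 20952838 to base 20952846. Few reads could give such values, and neighbouring sites can share reads. The 13 sites therefore cannot be taken as independent measurements. In the printed coding part, with 9 CpGs, 2 were at 25% or more, at 25% and 50%, and the rest at 8.20% or less. These 2 lie in MspI fragments, and their depth is unknown too. The other 11 of the 13 lie upstream of the start codon. Of the 14 exon sites listed in Tet/Tet ESCs and not in R1 ESCs, 10 were at 25% or more, their mean was 31.5%, and none lies in an MspI fragment of 40 to 220 bp. R1 neurons listed 13 of these 14, all at 0%. The constructs are not part of the mm10 sequence, and how reads from the modified allele contribute to these values was not tested. From RRBS, the authors reported raised methylation in Tet/Tet neurons downstream of the Dnmt1 promoter. Tet/Tet neurons have no listed site at Dnmt1 here, so that report could not be checked. To test it, the authors cut bisulfite PCR products of that region with BstUI, which cuts where CpGs were methylated. They reported digestion of a small part in Tet/Tet neurons and none in Tet/Tet ESCs or in either R1 cell type. How far that region overlaps the raised sites of Tet/Tet ESCs was not examined.

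**Figure D5:**
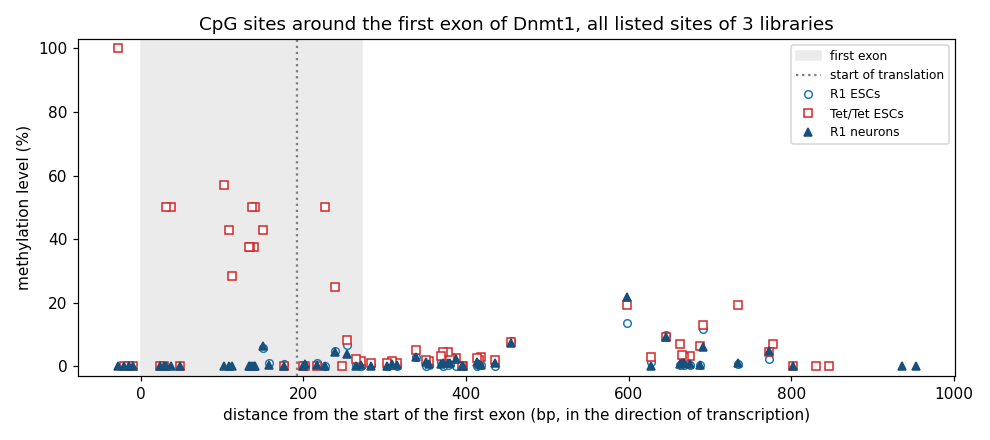
Methylation level (%, vertical axis) of every listed CpG site by distance from the start of the first exon of Dnmt1 (bp, horizontal axis) in 3 libraries; the grey band is the exon and the dotted line the start of translation. Tet/Tet ESCs have 13 exon sites at 25% or more, most of them upstream of the translation start, while the R1 libraries reach at most 6.58% in this exon.

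The wider pathway was read from lists drawn up by function, with earlier results of these data known. Of the other methyltransferase homologues, Trdmt1, a tRNA methyltransferase, had a promoter at 1.37% in ESCs and 1.57% in neurons of R1, and at 1.98% and 1.74% in those of Tet/Tet. Its body and both regions of Dnmt3c had too few sites. Of 9 methyl-CpG readers, 0 of 8 promoters with enough sites differed between the ESC libraries, 1 of 6 was lower in Tet/Tet neurons (Mbd1, by 14.4 points) and 2 of 8 were higher in R1 neurons than in R1 ESCs. Over all genes these promoter shares, against which the partner and demethylation counts also stand, were 8.26%, 38.1% and 37.2%. Zbtb38, a zinc finger reader of methylated CpG, went from 4.39% to 86.4% there (11 sites). For reader bodies the counts in these comparisons were 0 of 5, 3 of 3 lower and 5 of 5 higher (7.03%, 93.6% and 91.7% over all genes), and 2 of 3 were lower in Tet/Tet neurons than in Tet/Tet ESCs (70.6%).

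Of 15 partners of maintenance and de novo methylation, 0 of 11 promoters differed between the ESC libraries, 2 of 10 were lower in Tet/Tet neurons and 3 of 11 were higher in R1 neurons than in R1 ESCs. Dppa3, which encodes a maternal protein that interferes with UHRF1, was at 39.1% in ESCs and 91.4% in neurons of R1, and at 43.6% and 13.2% in those of Tet/Tet (8 sites). Nsd1, an H3K36 methyltransferase, was at 6.82% in R1 ESCs and 50.2% in R1 neurons (76 sites). The bodies of partners differed in 0 of 10 between the ESC libraries (7.03% over all genes), were lower in 9 of 10 in Tet/Tet than in R1 neurons (93.6%), higher in 9 of 10 in R1 neurons than in R1 ESCs (91.7%), and lower in 3 of 10 in Tet/Tet neurons than in Tet/Tet ESCs (70.6%).

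Of 14 demethylation genes, 1 of 13 promoters differed between the ESC libraries (Apobec1, a cytidine deaminase, lower by 16.7 points over 6 sites, where 1 site at 100% in R1 ESCs carried the mean), 3 of 9 were lower in Tet/Tet neurons and 3 of 13 were higher in R1 neurons. Smug1, a uracil glycosylase of base excision repair, had the widest promoter gaps, lower by 52.0 points in Tet/Tet than in R1 neurons and higher by 39.0 points in R1 neurons than in R1 ESCs, over 5 sites. Their bodies gave 0 of 7 differing in ESCs (7.03% over all genes), 3 of 5 lower in Tet/Tet neurons (93.6%), 5 of 7 higher in R1 neurons (91.7%), and 1 of 5 lower in Tet/Tet neurons than in Tet/Tet ESCs (70.6%). Between the Tet/Tet libraries, 0 of 6 reader promoters, 1 of 10 partner promoters (Dppa3, by 30.4 points) and 0 of 9 demethylation promoters were lower in neurons, against 17.0% of all promoters. The median promoter difference between the ESC libraries was 0.0966 points for readers, 0.249 for partners and -0.0939 for demethylation genes, against 0.268 over all genes.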

How the data were processed

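Mouse ESCs and neurons were profiled by RRBS, with 1 library per condition. Per the labels, reads were trimmed with Trim Galore 0.6.4, mapped to mm10 with Bismark 0.19.0 and called with MethylDackel 0.3.0. The authors deposited the percent methylation of each CpG, with no read counts and no normalization between libraries, so depth per site is unknown and every site was weighted equally. A region's level is the mean over its common sites. Differences of at least 10 percentage points were counted, with at least 5 common sites in a promoter or at a start and 20 in a body. No p-value was computed. CpG islands (longer than 200 bp, at least 50% GC, observed to expected CpG ratio from 0.6) and MspI fragments of 40 to 220 bp were located on the mm10 sequence, whose CpGs matched every listed site of chromosomes 1 to 19, X and Y. Genes were those of GENCODE M21, and promoter sequences were RefSeq's on mm10. Python 3.11.15, numpy 2.4.6, pandas 2.3.3, numba 0.67.0 and matplotlib 3.10.9 were used, and the steps were tested on simulated data. All members are named. From each list, at most 2 genes with the largest difference per comparison are. The members and lists were chosen with earlier results of these data known. Alternatives changed the sites used, the weighting, the thresholds and the regions. Tet/Tet neurons were not analysed here at Dnmt1, Dnmt3l and Tet1.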

Additional observations from a re-analysis of the deposited data

Results flagged for a closer look

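Among promoters with at least 5 and bodies with at least 20 common sites, 3 had Tet/Tet above R1 in ESCs and below it in neurons with one of the differences at 10 points or more. The promoters of Dnmt3a and Dnmt3b had the same signs with smaller differences. Over all gene bodies the median difference was 1.07 points in ESCs and -67.6 in neurons, and 93.6% were lower in Tet/Tet neurons by at least 10 points. Over all promoters the medians were 0.268 and -3.96 points. The signs of the 3 are thus those of the genome-wide medians, and the share of all genes with both signs was not counted. With 1 library per condition the difference was not tested. At the Uhrf1 promoter the difference was 0.518 points in ESCs and -10.2 in neurons, so that in neurons minus that in ESCs was -10.8 points. The Uhrf1 neuron difference only just passed 10 points. It fell below that over own sites (12.2% in R1 and 2.30% in Tet/Tet neurons) and over MspI fragment sites. At the Tet2 body the difference was 3.35 points in ESCs and -59.8 in neurons, which gave -63.1. At the Tet3 body it was 0.230 points in ESCs and -35.2 in neurons, which gave -35.4. The ESC differences are small beside the SD of the site differences, which was 3.28 points at the Uhrf1 promoter and 31.3 at the Tet2 body.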

How the results depend on the processing

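Of 276 differences of single members recomputed under alternatives, 16 crossed the 10 points and 15 changed sign, none of these past the threshold in both. Most crossings were at the Dnmt3a body between the Tet/Tet libraries (-9.12 points, -22.0 without islands) and the Uhrf1 promoter. With own sites the Uhrf1 body in ESCs went from -4.50 to 5.65 points. For gene bodies between the ESC libraries, 1 of 8 was called with the sites of the 2 libraries compared and 1 of 8 with each library's own sites (Dnmt3b, from -5.66 to -11.2 and -10.4 points). Between the Tet/Tet libraries the count of bodies was 4 with the sites of the 2 libraries compared, 5 with own sites, 1 of 3 inside MspI fragments and 1 at 20 points. Inside fragments the bodies were 3 of 3 lower in Tet/Tet neurons and 4 of 5 higher between the R1 libraries. For promoters in neurons the count of 1 became 2 with the sites of the 2 libraries, 0 inside fragments, 0 at 20 points, 2 with minimums of 2 and 5 sites, and 0 of 5 with 1 kb around every start. Between the R1 libraries the promoter count of 0 became 1 with 1 value per 100 bp, 2 with the lower minimums, 1 with only the 1 kb upstream, where Uhrf1 rose by 35.0 points, and 2 with all starts. Between the Tet/Tet libraries it became 1 with the lower minimums. Over transcript starts, fragment sites alone, an alternative chosen after seeing the data, gave 0 in ESCs, 4 of 14 between the R1 libraries and 2 of 11 between the Tet/Tet libraries. The ESC difference at the first exon of Dnmt1 was 11.0 points, 21.9 with own sites and 5.06 over the whole window of 1 kb to either side of the exon start. No paired analysis was possible because each condition has 1 library. Single values resting on few sites outside fragments are among the least secure, since their depth is unknown. The same holds for the raised Dnmt1 exon values of Tet/Tet ESCs, including those inside fragments.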

Other observations

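Values of exactly 0 or 100 were common at members' CpGs outside MspI fragments and islands: they made up 55.3% in ESCs and 77.5% in neurons of R1, and 57.5% and 64.7% in those of Tet/Tet. Inside fragments and outside islands these shares were 11.2% and 21.9% for R1, and 12.9% and 17.4% for Tet/Tet. R1 neurons listed 2196 values outside fragments at the 8 genes and R1 ESCs 819, while inside fragments they listed 993 and 894.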
